A study of Mus musculus with 2 samples.

Results

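The data described are the RNA levels of 10 elastic fibre genes in cells of the mouse aorta: Eln, Fbn1, Fbln5, Emilin1, Mfap2, Mfap4, Mfap5, Lox, Loxl1 and Ltbp4. They were chosen by name as the genes of the elastic fibre and were found by symbol among 16971 genes of the deposited count table, where each has 1 row. The study is an atlas of single cells from the normal blood vessel wall. All cells came from 1 group, whole aortas of female C57/BL6 mice aged 12 weeks, titled WT, with no genetic change given in the labels. The deposited table carries the name chow, from which the diet of these mice is taken, and the mice on a Western diet that the labels also mention were not analysed here. Each of 2 aortas, from the root to the femoral bifurcation and freed of perivascular fat, was digested for 1 hour at 37 °C with collagenases, hyaluronidase and DNase and measured as 1 droplet library (10x Genomics v2). The authors had grouped the cells into 10 named populations: smooth muscle cells (VSMC), fibroblasts (Fibro 1 and Fibro 2), endothelial cells (EC 1, EC 2 and EC 3), immune cells (Mono 1, Mono 2 and Macro) and Neuron.

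Elastic fibres let a large artery stretch with each heartbeat and recoil. Their core is crosslinked elastin, laid down on a scaffold of fibrillin microfibrils, with bridging proteins that bring tropoelastin to the microfibril and to the cell, and copper-dependent lysyl oxidases that crosslink it. In the aortic wall the fibres are organised as lamellae between layers of smooth muscle cells, which are known as a main source of elastin during growth, and the innermost lamella lies directly under the endothelium.

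The table holds 5451 cells. Library 1 had 2260 cells with a median of 4160.5 UMIs (unique molecular identifiers, 1 per captured transcript), and library 2 had 3191 cells with a median of 5636. The libraries share 12 cell barcodes, and in 2 of these 12 pairs both cells carried the same population name. Neuron was the smallest population, with 12 and 32 cells. The defining marker genes were highest where the names place them: 6 smooth muscle markers summed to 32985 and 30269 CPM (the UMIs of a gene scaled to all UMIs of the population) in VSMC and to at most 3457 elsewhere, and 6 endothelial markers summed to 3717 to 6378 in the EC populations and to at most 163 elsewhere. The cells named Neuron led in a list of Schwann cell and neuron markers, with 6325 to 9805 CPM. Levels below are CPM of the summed UMIs of a population in library 1 and library 2, in that order, and compare populations for 1 gene, never genes with each other. All 10 genes passed the filter on low counts and were among the 10488 genes tested.

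Tests used 1 edgeR quasi-likelihood fit to the 20 sums with population and library as terms, and adjusted p-values are Benjamini-Hochberg values over all genes tested. A gene is called where its adjusted p is under 0.05. The ± beside a log2 fold is the standard error that its F statistic implies, and each fold rests on n = 2 libraries. The populations were named by the authors from these same cells, so the p-values are not independent of that naming.

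Elastin RNA (Eln) was at a similar high level in 3 unlike cell types. EC 1 had 1642 and 2314 CPM, Fibro 1 had 1963 and 1737, and VSMC had 1977 and 1341. The libraries ranked these populations differently, and their ranges overlap. EC 3 followed with 272 and 555 CPM, Fibro 2 with 243 and 297, and EC 2 with 243 and 180. None of these 3 reached the lowest value of the leading populations. The immune populations had 53.1 to 199 CPM and Neuron 185 and 64.1, and the ranges of EC 2 and Mono 1 overlap.

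**Figure D1:**
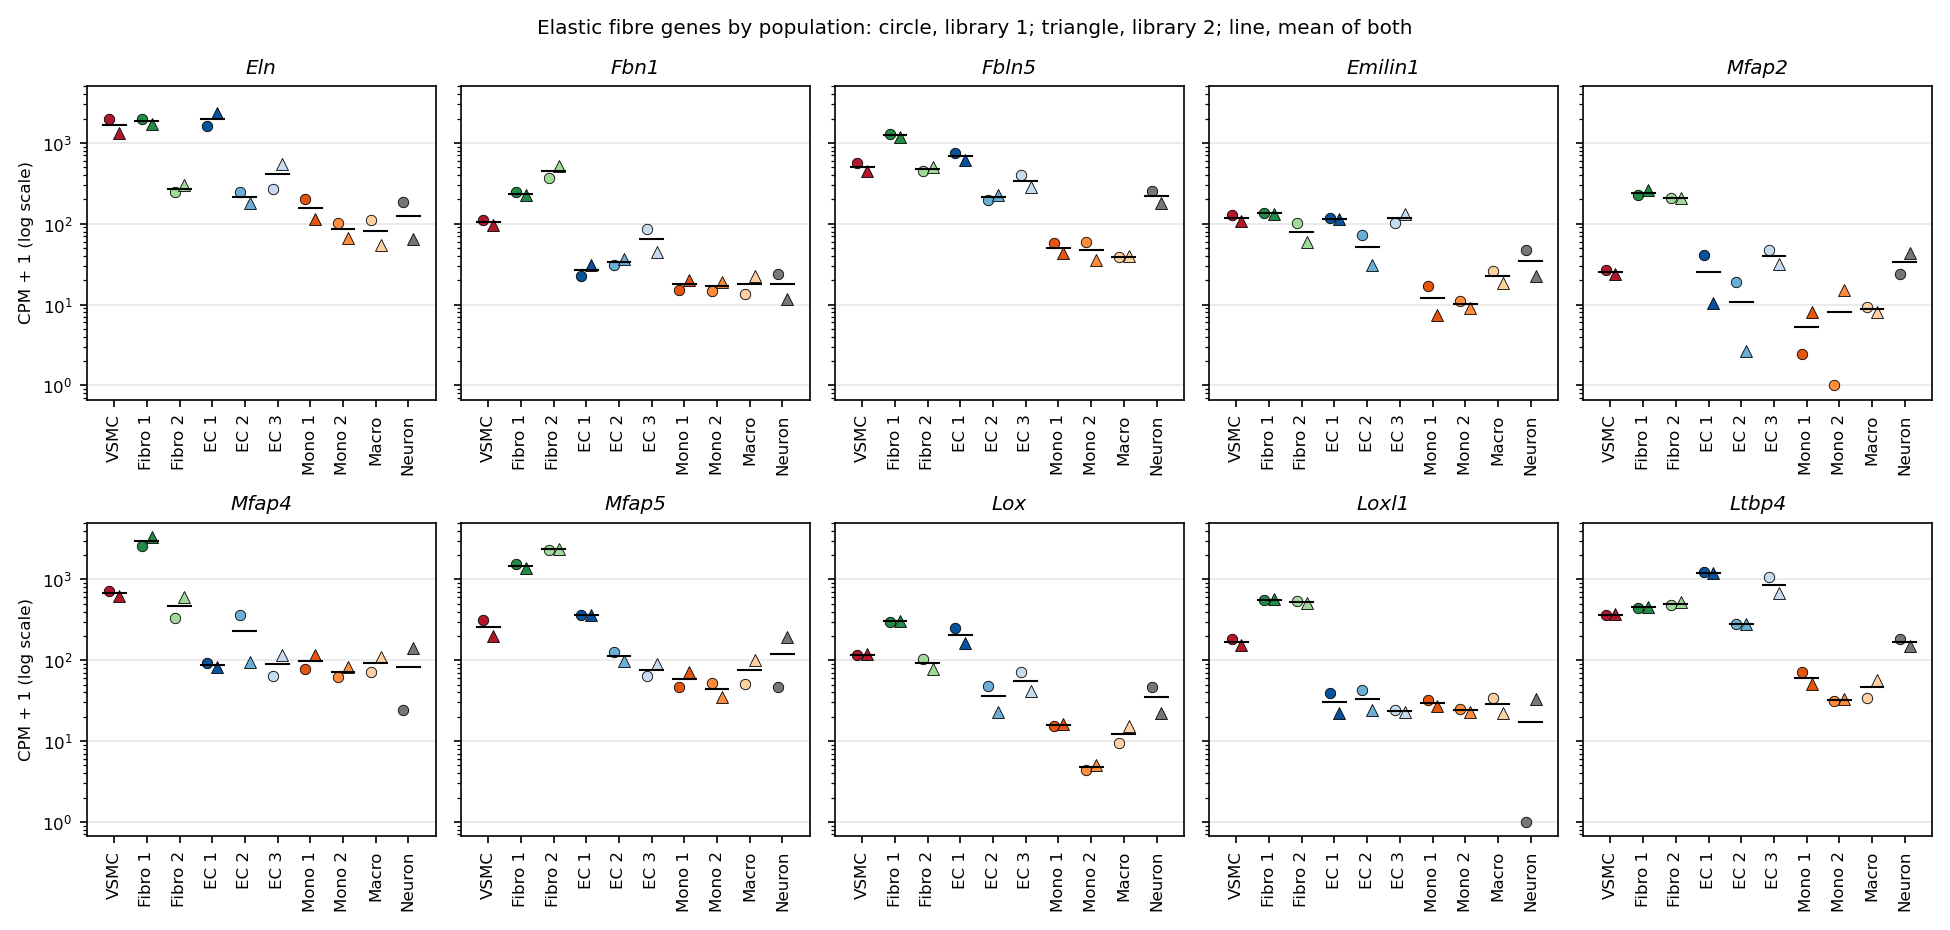
Level of each of the 10 genes in the 10 populations, as CPM + 1 on a log axis, with 1 symbol per library and a line at the mean of both. Eln is high in VSMC, Fibro 1 and EC 1, Mfap2 and Loxl1 are high in both fibroblast populations, Ltbp4 is highest in EC 1 (1231 and 1198 CPM), and a symbol at 1 marks a sum with no UMI of the gene.

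The microfibril genes had their highest levels in fibroblasts, but not in the same population. Fbn1 encodes fibrillin-1, the backbone of the microfibril. It had 371 and 514 CPM in Fibro 2, 243 and 228 in Fibro 1 and 110.4 and 94.8 in VSMC, and these 3 populations did not overlap. In EC 3 it had 85.4 and 43.2 CPM and in every other population at most 35.3. Mfap5, a small glycoprotein that binds fibrillin, had the same order at its top: 2298 and 2394 CPM in Fibro 2, 1539 and 1369 in Fibro 1. EC 1 came next with 366 and 367, above VSMC with 317 and 201, and the remaining populations had 34.3 to 192.

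Mfap2, the related fibrillin-binding glycoprotein, was far higher in both fibroblast populations than in any other. Fibro 1 had 224 and 260 CPM and Fibro 2 had 206 and 208, while no other sum exceeded 46.6. Mono 2 of library 1 held no Mfap2 UMI, which allows up to 10.2 CPM (3 counts, counting error only). Mfap4, a fibrinogen-domain protein of elastic fibres, had 2607 and 3372 CPM in Fibro 1 against 725 and 621 in VSMC and 328 and 597 in Fibro 2. Thus Fibro 1 stood apart from both. The ranges of VSMC and Fibro 2 did not overlap but were close in library 2, and Mfap4 was not called between them. EC 2 differed between its libraries with 361 and 94.0 CPM of Mfap4. The same population differed in smooth muscle markers, 3457 and 1059 CPM, and in fibroblast markers, 1367 and 804 CPM. The part of either marker list in that value was not tested.

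Fbln5 and Emilin1, which join elastin to microfibrils and cells, were also highest in Fibro 1. Fbln5 encodes fibulin-5, which binds tropoelastin and integrins. It had 1304 and 1193 CPM in Fibro 1, 760.0 and 622 in EC 1, 567 and 452 in VSMC and 450.3 and 509 in Fibro 2. Fibro 1 and EC 1 each stood apart from the next population, and VSMC and Fibro 2 overlapped. The immune populations had 34.3 to 57.7 CPM, below Neuron (254 and 182) and EC 2 (195 and 228). Emilin1, a glycoprotein at the boundary of elastin and microfibrils, was the most even of the 10 genes by the ratio of its highest to its lowest mean, 14.7. Fibro 1 had 135 and 133 CPM, EC 1 115 and 113, EC 3 101 and 129 and VSMC 128 and 107, and the ranges of VSMC, EC 3 and EC 1 overlap.

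Both lysyl oxidases were highest in Fibro 1, with different populations next. Lox had 295 and 308 CPM in Fibro 1, 251 and 163 in EC 1, 115 and 118 in VSMC and 104 and 77.7 in Fibro 2. None of these 4 ranges overlap. Loxl1, which crosslinks elastin in adult tissue, had 551 and 576 CPM in Fibro 1, 538 and 506 in Fibro 2 and 183 and 154 in VSMC. The EC populations had 21.4 to 41.4 CPM of Loxl1, a range that overlaps the immune populations at 21.2 to 33.5. Neuron of library 1 held no Loxl1 UMI, which at its depth allows up to 69.3 CPM.

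Ltbp4, which binds latent TGF-beta and fibulin-5 and takes part in elastin assembly, had its highest level in EC 1, with no overlap with the next population. EC 1 had 1231 and 1198 CPM and EC 3 had 1056 and 669. Fibro 2 followed with 476 and 526, Fibro 1 with 439 and 461, VSMC with 361 and 368 and EC 2 with 278 and 284. The immune populations had 30.6 to 70.1 CPM.

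Promoters of 5 of the 10 genes were matched in RefSeq (GRCm38.p6): Fbn1, Mfap2, Emilin1, Ltbp4 and Fbln5, with 9 start sites. The 250 bases before a start are shown for Fbn1 and Mfap2, both highest in fibroblasts, and for Ltbp4, highest in EC 1, since these populations form the contrast of the levels above. Each reads 5′ to 3′ on the gene's strand, and capitals mark each match to the Sp1 box GGGCGG on either strand. The first is Fbn1 at chr2:125506439-125506688 (minus strand), the next Mfap2 at chr4:141010431-141010680 (plus strand), and the last Ltbp4 at chr7:27337613-27337862 (minus strand).
Fbn1: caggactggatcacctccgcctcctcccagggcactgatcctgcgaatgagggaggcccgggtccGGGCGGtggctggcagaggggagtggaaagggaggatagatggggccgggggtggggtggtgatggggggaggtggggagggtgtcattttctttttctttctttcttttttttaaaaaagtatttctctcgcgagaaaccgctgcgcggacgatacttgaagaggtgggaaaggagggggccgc
Mfap2: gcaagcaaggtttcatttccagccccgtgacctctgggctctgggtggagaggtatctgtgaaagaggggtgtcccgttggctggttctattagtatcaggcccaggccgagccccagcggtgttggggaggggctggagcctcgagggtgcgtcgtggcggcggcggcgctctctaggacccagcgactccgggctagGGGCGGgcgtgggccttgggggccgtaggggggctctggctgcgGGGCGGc
Ltbp4: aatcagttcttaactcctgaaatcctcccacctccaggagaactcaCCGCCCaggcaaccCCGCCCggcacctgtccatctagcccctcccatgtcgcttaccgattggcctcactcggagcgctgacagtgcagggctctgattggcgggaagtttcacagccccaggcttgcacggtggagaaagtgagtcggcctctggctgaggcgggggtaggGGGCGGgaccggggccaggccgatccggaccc
The Sp1 box occurred 1 time for Fbn1, 2 times for Mfap2 and 3 times for Ltbp4. It was in 32.7% of 32851 promoter windows of the same length. Of the 9 windows none held the AP-1 site TGANTCA (6.75% of all windows), the TATA box TATAAA (12.4%) or a CArG box, the site of serum response factor (1.47%). The TEAD site GGAATG (12.6% of all) and the SOX site AACAAT (9.42%) were each in 1 window, that of the second Mfap2 start. The share of G and C was 59.2% for the Fbn1 window shown, 68.8% for Mfap2 and 64.4% for Ltbp4 against a median of 52.4% over all windows. Other starts of the same genes differed: the second Mfap2 start had 51.2% and 0 Sp1 boxes. The other 2 Ltbp4 starts had 79.2% each, with 5 and 7 boxes. Their windows (chr7:27333649-27333898 and chr7:27333664-27333913) overlap for most of their length, so they are not separate sequences among the 9 windows. Emilin1 had 63.2% and 0 boxes, and the 2 starts of Fbln5 had 65.2% with 2 boxes and 49.6% with 0. These matches describe letters and not bound sites, and the counts do not say which start was used.

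The share of each gene's UMIs held by a population joins its level to its number of cells. VSMC were 48.8% and 33.1% of cells and held 69.0% and 44.3% of Eln UMIs. Fibro 1 held 22.1% and 35.1% of them. EC 1 held 5.83% and 15.1% and made up 6.55% and 8.68% of cells, so its Eln share exceeded its cell share in library 2 only. Of all UMIs EC 1 held 5.46% and 7.68%, below its Eln share in both libraries. For 5 genes the 2 fibroblast populations held the larger part in both libraries: 77.1% and 89.0% of Mfap2, 70.9% and 84.8% of Mfap5, 58.3% and 76.0% of Loxl1, 54.8% and 74.5% of Fbn1 and 54.2% and 77.0% of Mfap4. The 3 EC populations held 20.7% and 25.2% of Ltbp4. The immune populations were 13.7% and 12.8% of cells and held 0.359% to 1.61% of any of the 10 genes.

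**Figure D2:**
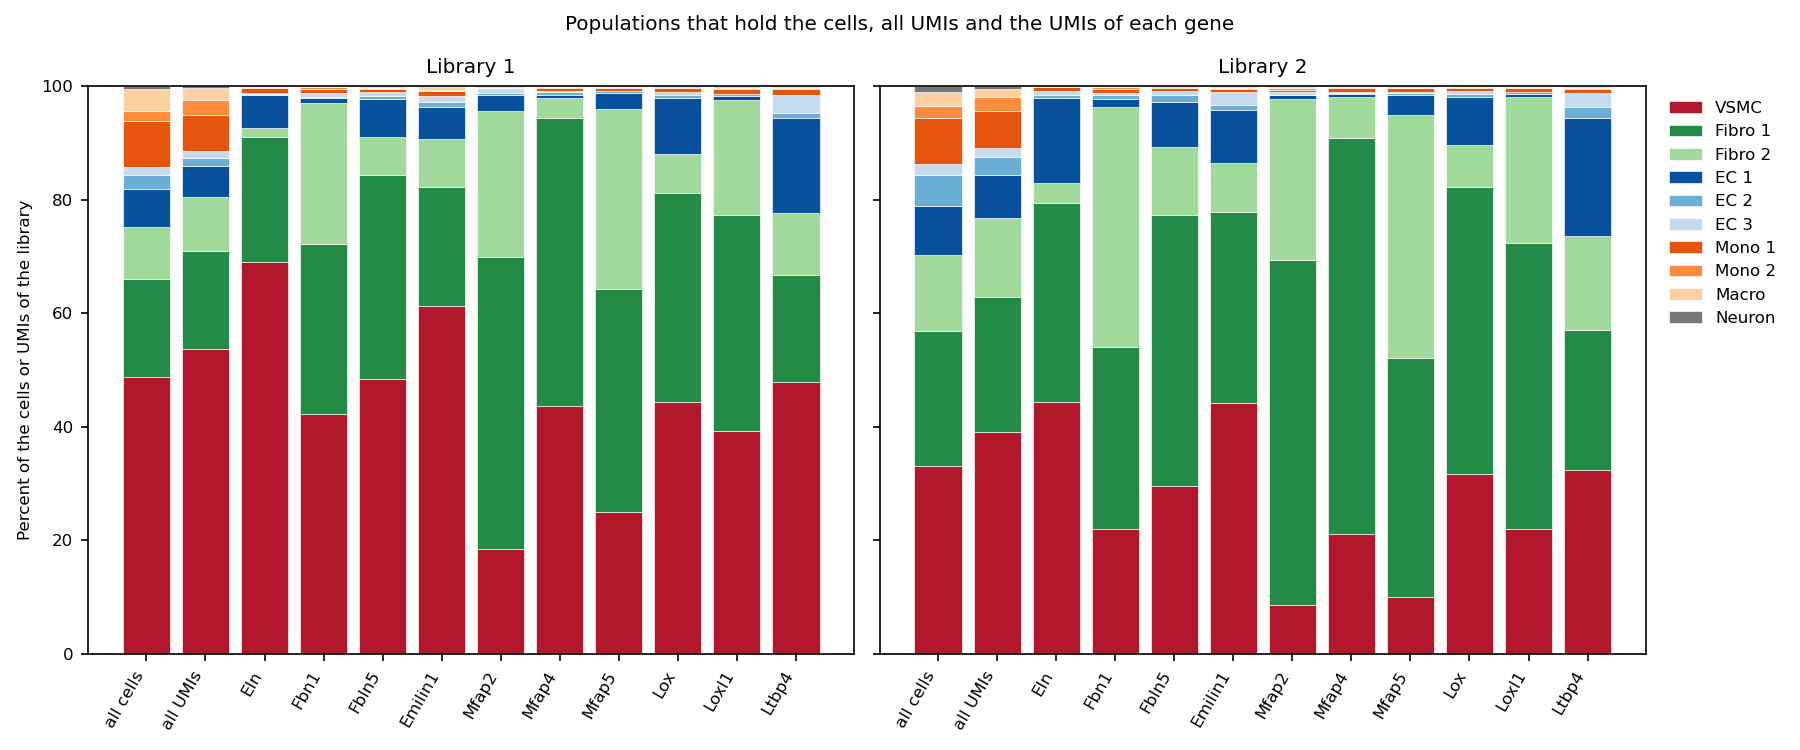
Stacked shares, in percent, of the cells, of all UMIs and of the UMIs of each gene by population, for library 1 (left) and library 2 (right). VSMC hold the largest share of Eln (69.0% and 44.3%), the 2 green fibroblast blocks hold most Mfap2 and Mfap5, and the dark blue EC 1 block is widest for Ltbp4 in both libraries.

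Smooth muscle cells were lower than Fibro 1 in most of the genes. In VSMC against Fibro 1, 7 of 10 genes were lower, 0 were higher and 3 were not called, where 43% of all genes tested were called (23.6% lower). Mfap2 had the lowest log2 fold, -3.35 ± 0.18 (edgeR adjusted p = 1.89e-16), followed by Mfap5 at -2.50 ± 0.21 and Mfap4 at -2.15 ± 0.28. The crosslinkers Loxl1 and Lox had log2 folds of -1.77 ± 0.11 and -1.40 ± 0.12, Fbln5 -1.31 ± 0.17 and Fbn1 -1.20 ± 0.13. Each of these 7 was lower in both libraries. Eln was not among them, with -0.17 ± 0.24 (edgeR adjusted p = 0.614) and log2 folds of 0.05 and -0.43 in the libraries. Emilin1 at -0.23 ± 0.13 and Ltbp4 at -0.32 ± 0.17 also missed the threshold (edgeR adjusted p = 0.151 and 0.132). The median over the 10 genes was -1.35 and over all genes tested -0.02.

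Against Fibro 2 genes differed in both directions. In VSMC 3 of 10 genes were higher and 5 lower, where 42.2% of all genes tested were called (19.8% higher and 22.4% lower). Eln was higher by 2.59 ± 0.26 on the log2 scale, 6.04-fold (edgeR adjusted p = 7.09e-10), with 3.07 and 2.14 in the libraries. Emilin1 (0.66 ± 0.15) and Lox (0.41 ± 0.14) were higher by less. Lower were Mfap5 at -3.18 ± 0.22, Mfap2 at -3.10 ± 0.19 and Fbn1 at -2.13 ± 0.13, as were Loxl1 (-1.63 ± 0.11) and Ltbp4 (-0.46 ± 0.17). Fbln5 (0.07 ± 0.17) and Mfap4 (0.56 ± 0.27) were not called, and the library folds of Mfap4 were 1.19 and 0.02. The calls of Emilin1, Lox and Ltbp4 were each lost under at least 1 other setting: DESeq2 lost Emilin1 and Lox, and thinning cells to 1300 UMIs lost Lox and Ltbp4.

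The fibroblast populations also differed from each other. In Fibro 1 against Fibro 2, 5 of 10 genes were higher, 2 lower and 3 not called, where 15.5% of all genes tested were called (8.3% higher and 7.2% lower). Eln was higher in Fibro 1 by 2.77 ± 0.27 (6.82-fold, edgeR adjusted p = 1.06e-09), Mfap4 by 2.71 ± 0.29, Lox by 1.81 ± 0.14, Fbln5 by 1.38 ± 0.17 and Emilin1 by 0.89 ± 0.16. Fbn1 was lower at -0.92 ± 0.13 (edgeR adjusted p = 1.27e-06) and Mfap5 at -0.68 ± 0.20 (edgeR adjusted p = 0.0171). All 10 genes had the same sign in both libraries. Mfap2 (0.26 ± 0.16), Loxl1 (0.13 ± 0.11) and Ltbp4 (-0.14 ± 0.17) were not called. The call of Mfap5 was lost with DESeq2, without the library term and after thinning. The comparisons share populations, so their folds are not independent of each other.

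**Figure D3:**
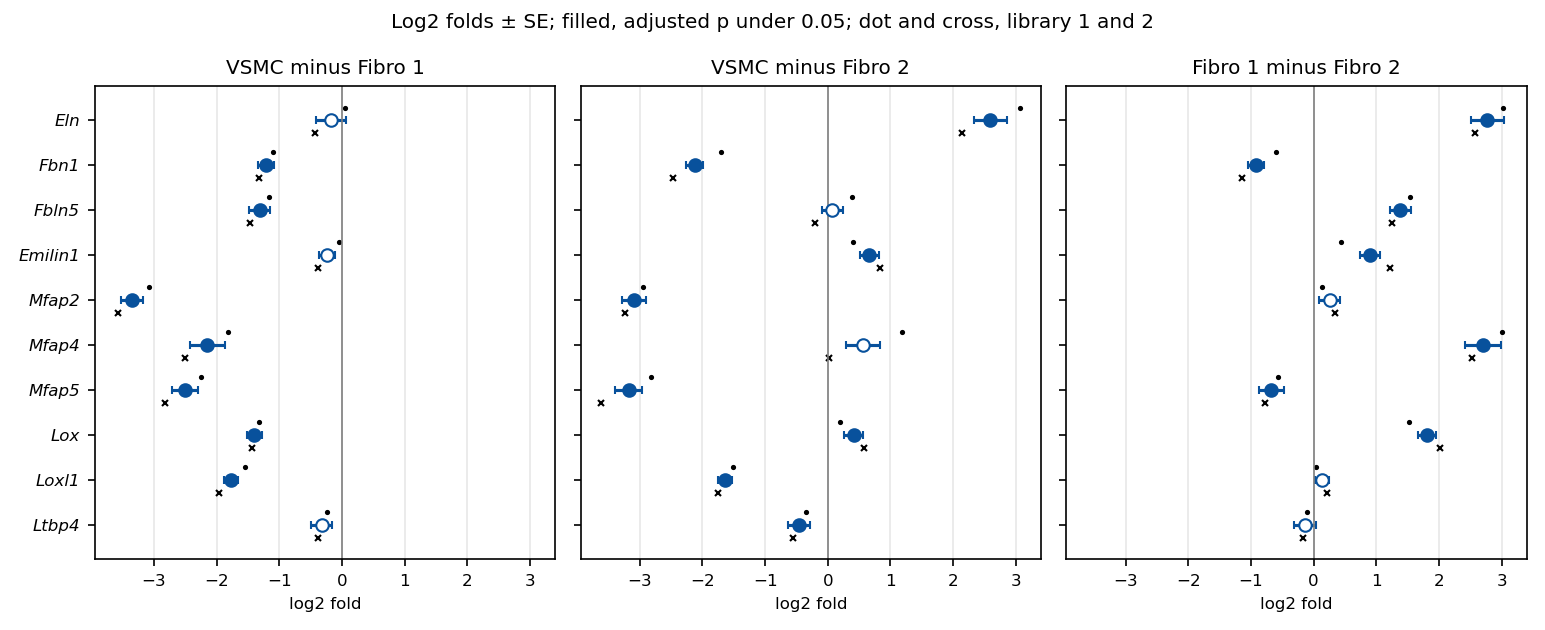
Log2 folds between VSMC, Fibro 1 and Fibro 2 for the 10 genes, with circles at the fitted fold ± SE, filled where the adjusted p is under 0.05, and small marks for the folds within library 1 (dot) and library 2 (cross). Eln lies near 0 between VSMC and Fibro 1 (-0.17) and far to the right in both comparisons with Fibro 2 (2.59 and 2.77), while Fbn1 and Mfap5 lie to the left in all 3.

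EC 1 had more RNA of several elastic fibre genes than the other endothelial populations. Against EC 2, 6 of 10 genes were higher and 0 lower, where 20.3% of all genes tested were called (11.1% higher and 9.23% lower). The log2 folds were 3.44 ± 0.30 for Eln (10.8-fold, edgeR adjusted p = 1.44e-10), 2.92 ± 0.30 for Lox, 2.24 ± 0.20 for Ltbp4, 1.92 ± 0.28 for Mfap5, 1.77 ± 0.20 for Fbln5 and 1.62 ± 0.31 for Emilin1. All 6 were higher in both libraries. Emilin1 had 0.84 in library 1 and 1.98 in library 2 and rests on 30 UMIs in EC 2, and Lox rests on 21. Without the 10% of cells with most markers of the other named cell classes, Mfap5 had 3.06 and Lox 3.63, and both were near these values without doublets (3.15 and 3.62). EC 2 also carried more pericyte markers than EC 1, 1048 and 750.4 CPM against 70.9 and 50.1, and 80.2% and 85.2% of these UMIs lay in the top 10% of EC 2 cells. Adipocyte markers summed to 225 and 307 CPM in EC 2 against 1.65 and 38.1 in EC 1, and red cell markers to 3149 and 18069 against 12785 and 4664. Fibroblast markers summed to 1367 and 804 CPM in EC 2 against 626 and 659 in EC 1. The part of these marker lists in the folds was not tested. Against EC 3, 5 of 10 were higher and 0 lower, where 11.6% were called (5.97% higher and 5.64% lower). Here Mfap5 had 2.36 ± 0.32, Eln 2.34 ± 0.28 (5.08-fold, edgeR adjusted p = 2.2e-07), Lox 2.17 ± 0.31, Fbln5 1.26 ± 0.20 and Ltbp4 0.74 ± 0.19. Emilin1 was not called against EC 3 (0.09 ± 0.27). EC 3 rests on 34 and 60 cells, with 22 UMIs of Lox and 37 of Mfap5.

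The immune populations served as a comparison group, since they are expected to lack elastin. Free RNA carried into droplets was not measured. Against their mean, 6 of 10 genes were higher in EC 1 and 0 lower, where 41% of all genes tested were called (23.7% higher and 17.3% lower). Ltbp4 had a log2 fold of 4.61 ± 0.17 (24.4-fold, edgeR adjusted p = 1.79e-20), Lox 4.31 ± 0.25, Eln 4.15 ± 0.22, Fbln5 3.80 ± 0.17, Emilin1 3.05 ± 0.26 and Mfap5 2.50 ± 0.21. Eln had 3.43 in library 1 and 4.80 in library 2. After thinning the fit gave 5.43 for Lox and 5.29 for Ltbp4. Lox had only 1 and 2 UMIs in Mono 2, and after thinning 0 cells of Mono 2 held one. Ltbp4 was in 0% and 2.90% of thinned Mono 2 cells. The size of these thinned folds thus leans on counts at or near 0 and does not show a larger difference. Fbn1 (0.50 ± 0.35), Mfap2 (1.21 ± 0.57), Mfap4 (-0.21 ± 0.32) and Loxl1 (-0.13 ± 0.29) were not called, and no difference from the immune cells was detectable for these 4 at this depth. They rest on 38 to 177 UMIs in EC 1.

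EC 1 and VSMC were compared after the levels had been seen. In EC 1, 3 of 10 genes were higher and 3 lower, where 40% of all genes tested were called (20.7% higher and 19.4% lower). Ltbp4 was higher by 1.71 ± 0.17 (edgeR adjusted p = 7.04e-10) and Lox by 0.74 ± 0.14, while Mfap4 (-3.03 ± 0.32), Loxl1 (-2.66 ± 0.19) and Fbn1 (-1.94 ± 0.22) were lower. Fbln5 at 0.42 ± 0.17 lay on the threshold (edgeR adjusted p = 0.049997), and its call was lost without doublets, without the filter on low counts, without the library term and after thinning. Eln had 0.26 ± 0.25 (edgeR adjusted p = 0.449), with -0.31 in library 1 and 0.79 in library 2. Mfap5 at 0.48 ± 0.21 (edgeR adjusted p = 0.0683), Emilin1 at -0.02 ± 0.16 and Mfap2 at -0.40 ± 0.37 were not called either.

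**Figure D4:**
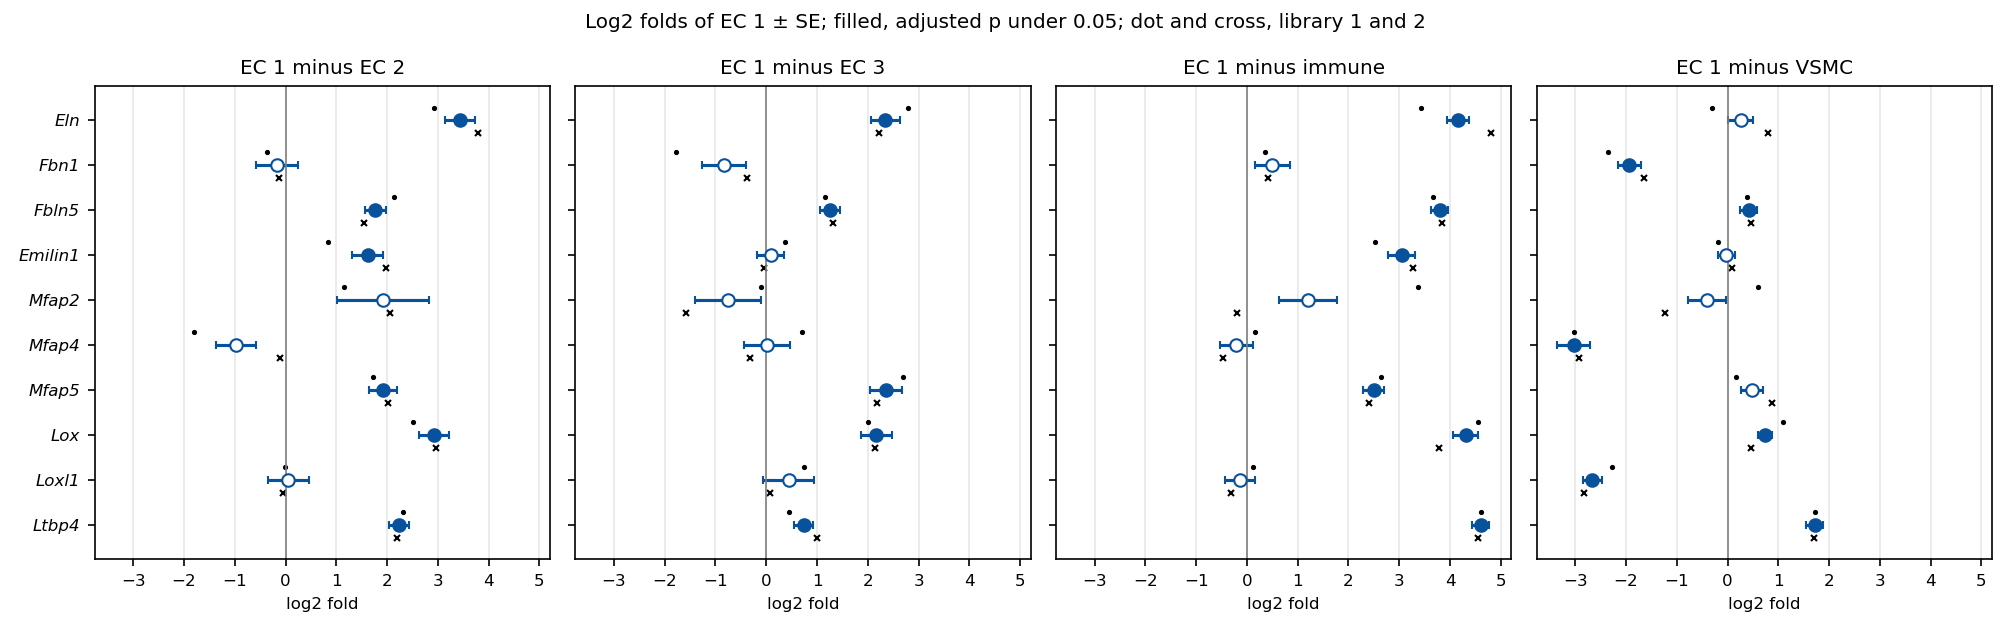
Log2 folds of EC 1 against EC 2, EC 3, the mean of the immune populations and VSMC, with circles at the fitted fold ± SE, filled where the adjusted p is under 0.05, and small marks for library 1 (dot) and library 2 (cross). Eln, Fbln5, Mfap5, Lox and Ltbp4 are filled and right of 0 in the first 3 panels, and against VSMC Eln is open at 0.26.

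Smooth muscle RNA was present in EC 1 sums, and its values stand beside the Eln result. The UMIs of Acta2, Tagln and Myh11, contractile genes of smooth muscle, came to 1794 and 1076 CPM in EC 1 against 1113 and 1073 in Macro and 1155 and 702 in Mono 1. Per UMI of these 3 genes EC 1 held 14.3 and 45.2 times as many Eln UMIs as VSMC, and Fibro 1 19.7 and 41.7 times. The ratio was 1.52 and 1.04 in Macro, 2.68 and 3.40 in Mono 1, 1.85 and 3.45 in Mono 2 and 1.00 and 0.75 in Neuron. It was 1.19 and 4.15 in EC 2, 3.11 and 18.9 in EC 3 and 4.38 and 9.73 in Fibro 2. EC 1 was above each of these in the same library. In the 25% of EC 1 cells with the smallest share of these UMIs (37 and 69 cells), Eln was 1265 and 2166 CPM. The 3 contractile genes came to 456 and 217 CPM there, a fall that the choice of cells fixes. In the same 25% Eln was 126 and 44.4 CPM in Mono 1, 112 and 61.5 in Mono 2 and 157 and 14.7 in Macro. Mono 2 had only 10 and 17 such cells. In the same 25% of VSMC Eln was 2859 and 1593 CPM, above all VSMC cells (1977 and 1341). Few contractile UMIs therefore did not mark cells low in Eln within VSMC. The fibroblast markers summed to 626 and 659 CPM in EC 1. This was above the immune populations in library 1 (309 to 509) and below them in library 2 (807 to 1072). This 25% was defined after the data were seen, and the source of the Eln RNA in EC 1 was not tested.

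Counted cell by cell, Eln was present in most EC 1 cells. After every cell was thinned to 1300 UMIs, 79.1% and 85.9% of EC 1 cells held an Eln UMI, with exact binomial 95% intervals of 71.6 to 85.3 and 81.3 to 89.8. The shares were 82.0% and 67.3% in VSMC and 62.1% and 55.9% in Fibro 1. EC 1 thus overlapped VSMC and lay above Fibro 1, whose mean level was similar. In the immune populations 9.16% to 22.5% of thinned cells held one, a share that cells expected to lack elastin show. Before thinning the shares were 89.9% and 97.1% in EC 1 (median depth 3286.5 and 4710 UMIs), 96.0% and 94.9% in VSMC (4648 and 7154) and 24.7% and 16.7% in Macro (2382 and 2958.5).

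Ltbp4 was found in 79.7% and 76.2% of thinned EC 1 cells and in 79.4% and 56.7% of EC 3, against 43.6% and 41.5% of Fibro 1 and 0% to 8.29% of immune cells. The share of 0 is Mono 2 of library 1, with an exact upper limit of 8.81% for its 40 cells. Mfap4 was found in 79.2% and 78.9% of Fibro 1 cells but in 21.7% and 30.2% of Fibro 2. Mfap5 was even between them, in 74.6% and 74.1% of Fibro 1 and 76.8% and 77.8% of Fibro 2. Of the 10 genes, a thinned cell held a UMI of 4.63 and 4.55 on average in Fibro 1, 3.33 and 3.41 in Fibro 2, 3.18 and 2.64 in VSMC, 3.07 and 2.95 in EC 1, 1.97 and 1.73 in EC 3 and 1.02 and 0.965 in EC 2. The immune populations had 0.348 to 0.608. Fibro 1 cells therefore carried the broadest set at equal depth.

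Eln varied more between Fibro 1 cells than between EC 1 cells. In thinned cells the variance over the mean of Eln UMIs was 5.54 and 5.00 in Fibro 1, where genes of near mean (within 20%) had medians of 1.79 and 1.38. It was 3.63 and 2.93 in VSMC (1.60 and 1.23) and 2.50 and 2.54 in EC 1 (1.27 and 1.27). The top 10% of Fibro 1 cells held 45.2% and 47.9% of its Eln UMIs, against 32.7% and 29.4% in EC 1. Mfap4 in Fibro 2 was also uneven in library 2, with 4.17 against 1.23 for genes of near mean, and 2.05 against 1.08 in library 1. Loxl1 in Fibro 1 was at 1.14 and 1.09, close to 1.15 and 1.198 for genes of near mean. These ratios are descriptions over cells, and the libraries are the only replicates.

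Within Fibro 1 some pairs of the genes were positively correlated over cells. Spearman's rho over thinned cells (390 and 757) was 0.35 and 0.30 for Eln with Fbln5, 0.33 and 0.34 for Eln with Mfap4 and 0.35 and 0.31 for Fbln5 with Mfap4. Of 45 pairs of genes, 5 exceeded 0.2 in both libraries in Fibro 1, and the others of these 5 were Eln with Mfap5 and Mfap4 with Mfap5. In Fibro 2 (207 and 427 cells) 1 pair did, Fbn1 with Mfap5, at 0.27 and 0.36. In EC 1 (148 and 277 cells) it was Eln with Fbln5, at 0.22 and 0.25. In VSMC (1103 and 1056 cells) no pair did, and the highest mean was 0.13. Cells of 1 library share its depth and background, thinned counts are sparse, and a low rho says little about the cells.

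**Figure D5:**
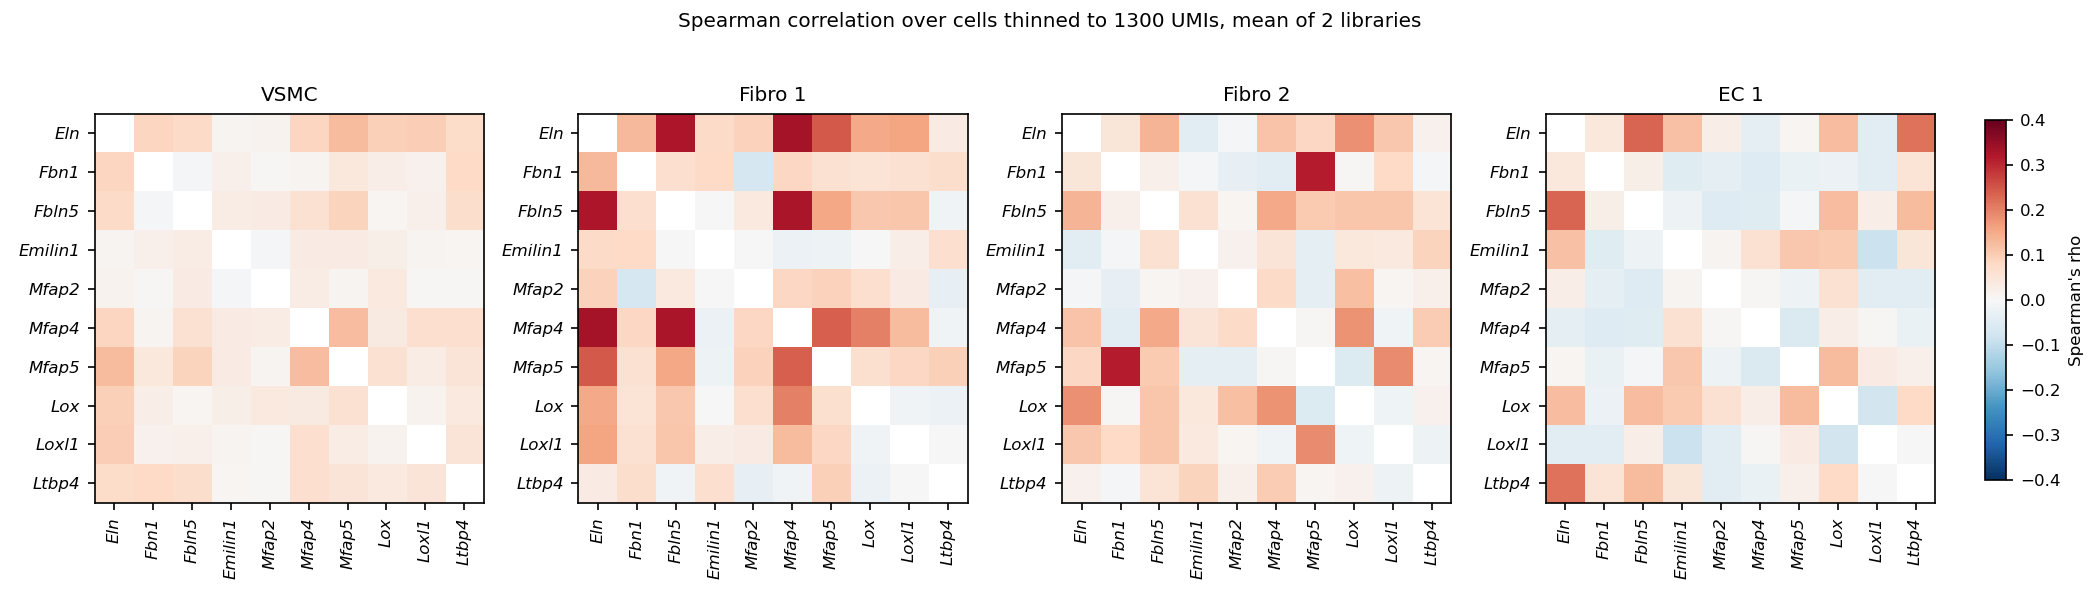
Spearman correlation of each pair of the 10 genes over cells thinned to 1300 UMIs in VSMC, Fibro 1, Fibro 2 and EC 1, as the mean of both libraries on a colour scale from -0.4 to 0.4, with the diagonal left blank. Eln, Fbln5 and Mfap4 form a dark block in Fibro 1, and Fbn1 with Mfap5 is the dark pair in Fibro 2.

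Over the 20 sums the 10 genes fell along more than 1 pattern. Pearson correlations of log2(CPM + 5) between members ranged from 0.949 for Fbln5 with Lox to 0.332 for Mfap4 with Ltbp4. Eln was closest to Lox (0.885), Fbln5 (0.844) and Emilin1 (0.844), and farthest from Mfap2 (0.437). Mfap4 with Loxl1 had 0.901 and Mfap5 with Loxl1 0.870. The sums share 2 libraries and their depth, so these values describe likeness and carry no p.

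Among 9884 other genes with at least 200 UMIs, those most like each member over the same 20 sums were as follows. Eln was most like Mical2 (r = 0.92), Bgn (0.91) and Gxylt2 (0.90), and Lox was close to Bgn (0.96) and Pam (0.94), where Bgn encodes the proteoglycan biglycan. Ltbp4 was most like Cyb561 (0.97), Amotl1 (0.95) and Nfib (0.94), and Fbln5 most like Fam198b (0.96), Nfib (0.95) and Calu (0.94). Emilin1 followed Cyb561 (0.92), Fhl1 (0.92) and Lamb2 (0.92). For the fibroblast-led genes the nearest were Antxr1, Omd and Gpx7 for Mfap5 (0.93 to 0.96), Dkk3, C1qtnf2 and Ror1 for Mfap4 (0.93 to 0.95) and Serping1, Nbl1 and Arl1 for Mfap2 (0.91 to 0.92). Fbn1 was nearest to Fam171b, Il17d and Gm26523 (0.92 to 0.95) and Loxl1 to Lrrc17, Gm26523 and B3gnt9 (0.93 to 0.95). Bgn had 3396 and 3179 CPM in EC 1, 3781 and 4659.8 in Fibro 1 and 3420.3 and 3680.2 in VSMC, with 669 and 290.4 in EC 2.

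Other genes of elastic fibre assembly, from a list of 24 of which 22 were in the table and 21 tested, were more often lower than higher in VSMC. Against Fibro 1, 15 of the 21 were lower (23.6% of all genes tested) and 3 higher (19.4%), with a median of -0.87. Against Fibro 2, 11 were lower (22.4% of all) and 6 higher, near the 19.8% of all genes, with a median of -0.73. The medians over all genes tested were both -0.02. Adamtsl2, which binds fibrillin-1, had 3.02 and 2.50 CPM in VSMC, 138 and 139 in Fibro 1 and 10.6 and 15.5 in Fibro 2. Fbln1 (fibulin-1) had 32.9 and 29.6 CPM in VSMC against 1123 and 1183 in Fibro 1, and Emilin2 had 169.9 and 211 CPM in Fibro 2 against 24.95 and 19.6 in Fibro 1. Between the fibroblast populations 6 of the 21 were higher in Fibro 1 (8.3% of all genes) and 7 lower (7.2%), with a median of -0.07 against 0.02 over all genes. Ltbp2 had a log2 fold of 4.89 ± 0.34 (4.28 and 5.07 in the libraries, on 7 UMIs in Fibro 2) and Adamtsl2 3.32 ± 0.21, while Emilin2 had -3.16 ± 0.17 and Efemp1 (fibulin-3) -2.73 ± 0.17.

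In the endothelium the assembly list had 7 of 21 genes higher in EC 1 than in EC 2 (11.1% of all genes tested) and 0 lower (9.23%), with a median of 0.81 against 0.01 over all genes. Against EC 3, 7 were higher (5.97% of all) and 4 lower (5.64%), with a median of 0.86 against 0.03. Fbln2 (fibulin-2) had 455 and 527 CPM in EC 1 against 20.8 and 13.7 in VSMC, a log2 fold of 4.85 ± 0.16. Bgn had 3.04 ± 0.23 against EC 2 and 2.15 ± 0.22 against EC 3. Efemp1 had 3.38 ± 0.49 against EC 2, but 1.45 and 5.02 in the libraries. Tnxb (tenascin-X) was lower in EC 1 than in EC 3, at -2.66 ± 0.56 (-3.39 and -2.22 in the libraries). Against VSMC, 4 of 21 were higher in EC 1, near the 20.7% of all genes, and 10 lower (19.4% of all), with a median of -0.34 against -0.03. Among the lower were Ltbp1 (-3.57 ± 0.20) and Vcan (versican, -3.76 ± 0.31, with -2.49 and -4.60 in the libraries). Against the immune populations 10 were higher (23.7% of all) and 1 lower (17.3%), with a median of 1.33 against 0.07, led by Fbln2 at 5.04 ± 0.20. Fkbp10, a collagen and elastin chaperone, had 34.6 and 32.8 CPM in EC 1 and no UMI in Mono 2.

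Genes that break down elastin or inhibit its breakdown, a list of 14 with 13 tested, were also more often lower in VSMC. Against Fibro 1, 10 of 13 were lower (23.6% of all genes tested) and 0 higher (19.4%), with a median of -2.04. Against Fibro 2, 8 were lower (22.4% of all) and 0 higher (19.8%), with a median of -2.03. Both proteases and inhibitors were among them. Mmp2, a matrix protease, had a log2 fold of -4.52 ± 0.15 in VSMC against Fibro 1, Ctsk (cathepsin K) -3.86 ± 0.16, and the inhibitors Serpina3n and Timp1 -4.44 ± 0.24 and -3.06 ± 0.20. Timp1 had -2.47 and -3.88 in the libraries. In Fibro 1 against Fibro 2, 4 of 13 were higher (8.3% of all) and 2 lower (7.2%), with a median of 0.29, with Cst3 (cystatin C, an inhibitor of cathepsins) at 2.02 ± 0.17 and Timp3 at 1.61 ± 0.21. In EC 1, 4 of 13 were higher (11.1% of all) and 1 lower (9.23%) than in EC 2, with a median of 0.66, and 3 higher (5.97%) and 0 lower (5.64%) than in EC 3, with a median of 0.31. Against VSMC 6 were higher in EC 1 (20.7% of all) and 2 lower, near the 19.4% of all genes, with a median of 0.53. Against the immune populations 7 were higher (23.7% of all) and 3 lower (17.3%), with a median of 1.13. Reck, a membrane inhibitor of matrix proteases, had 61.0 and 64.2 CPM in EC 1, 5.92 and 8.39 in EC 2 and no UMI in Mono 2. The immune cells carried the elastolytic protease Ctss (cathepsin S), with 1197 and 1024 CPM in Mono 1, 1043 and 1128 in Mono 2 and 218 and 149 in Macro, against 4.95 and 4.01 in EC 1. Mmp9 had 162 and 176 CPM in Mono 1, and Mmp12, of the same list, had 289 and 242 CPM in Mono 2.

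The Neuron cells had 2 of 10 genes higher than the immune populations and 0 lower, where 17.2% of all genes tested were called (8.94% higher and 8.3% lower). Fbln5, at 254 and 182 CPM, had a log2 fold of 1.66 ± 0.35 (edgeR adjusted p = 0.000734), and Ltbp4, at 185 and 150 CPM, 1.28 ± 0.38 (edgeR adjusted p = 0.0179). The call of Ltbp4 was lost under 2 of the other settings, and thinned its fold was 2.09. These values rest on 28 and 22 UMIs. Neuron also carried smooth muscle markers at 3232 and 1944 CPM. Pericyte markers summed to 762 and 2606 CPM, against 48.0 to 85.0 in the immune populations. Mesothelial markers summed to 208 and 10.7 CPM, with 3 of 4 genes at 0, and adipocyte markers to 0 and 374, with Plin1 at 0. The part of these marker lists in the folds was not tested. In the assembly list 7 of 21 were higher in Neuron (8.94% of all genes) and 0 lower (8.3%), with a median of 0.90 against -0.21 over all genes. Hspg2 (perlecan) had 2.58 ± 0.38. In the breakdown list 4 of 13 were higher (8.94% of all) and 2 lower (8.3%), with a median of 0.28. Ctss had no UMI in Neuron.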

How the data were processed

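RNA was measured in single cells of 2 aortas. The deposited values are whole-number counts of UMIs per gene and cell, which the authors obtained with Cell Ranger (version 2.1 in the submitters' processing notes). Neither a genome build nor an annotation is given in the sources used here. The authors had kept 5451 cells, each with 1322 to 14968 UMIs, and named 10 populations. Libraries were told apart by the number at the end of the barcode, which does not say which aorta is which, so no sample was matched to a library by name. The libraries held 11104066 and 19484171 UMIs, and intervals and limits for 0 counts cover counting error only.

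Counts were summed for each population and library with at least 10 cells, filtered by filterByExpr, scaled by TMM and tested with the quasi-likelihood test of edgeR 4.0.16 in R 4.3.3, with the library as a term (9 residual degrees of freedom, common dispersion 0.013). The libraries are 2 separate aortas, and each gives all populations, so the library pairs the sums. Folds within a library use a prior count of 0.5. Alternatives were DESeq2 1.42.0, RLE size factors, no filter, no library term, only the populations compared, cells thinned to 1300 UMIs, and leaving out doublets (Scrublet in scanpy 1.11.5: 58 and 26 cells, kept in the values reported), cells near another population, or the 10% of cells with most markers of other classes. Levels, shares and correlations came from Python 3.11.15 (pandas 2.3.3, numpy 2.4.6 and scipy 1.17.1).

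The test was run on simulated counts of 10488 genes drawn from the fit. There VSMC against Fibro 1 recovered 86% of genes changed 2-fold and 97% changed 4-fold, and EC 1 against EC 3 recovered 39% and 81%.

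All 10 members were named in every comparison, with up to 4 called genes of each related list (largest absolute fold, at least 50 UMIs) and the 3 genes most like each member, of which 1 is not reported here. The members and lists were chosen with earlier results of these data known. EC 1 against VSMC and the 25% of cells low in smooth muscle UMIs were chosen after values were seen. So were the genes of near mean and the motifs. The other levels of related genes (Ctss, Mmp9 and Mmp12 in the immune cells, Bgn, Fbln2) were also chosen then.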

Additional observations from a re-analysis of the deposited data

How the results depend on the processing

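Of 714 tests of the 10 genes under 9 other settings, 658 kept direction and side of the threshold, 16 lost the call, 21 gained one and 19 changed sign, all 19 in folds that were not called. Eln kept its calls in VSMC and Fibro 1 against Fibro 2 and in EC 1 against EC 2, EC 3 and the immune populations under each setting. For VSMC against Fibro 1, Eln was 0.052 and Emilin1 0.077 after thinning. For EC 1 against EC 2, Fbn1 was 0.33 without cells rich in other markers and 0.18 without doublets, Loxl1 was -0.0042 with DESeq2, -0.0077 with RLE, -0.043 with only the populations compared and -0.0017 thinned, and Mfap4 was 0.29 thinned. For EC 1 against EC 3, Emilin1 was -0.027 without cells rich in other markers, and Mfap4 was -0.030 with RLE, -0.063 without doublets and -0.052 with only the populations compared. Thinned, EC 1 against the immune populations gave 0.25 for Mfap4 and 0.16 for Loxl1, Neuron against them gave 0.091 for Fbn1, and EC 1 against VSMC gave 0.10 for Mfap2. Mfap5 in Neuron was -0.44 without cells near another population, and Emilin1 in EC 1 against VSMC was 0.0028 with only the populations compared. RLE and DESeq2, with 3 of the sign changes, also shifted the median of all genes. The shift was -0.065 (RLE) and -0.068 (DESeq2) for EC 1 against EC 2 and -0.044 (RLE) for EC 1 against EC 3. With only the populations compared the median shifted by -0.046 and -0.047 in these comparisons. There Loxl1 in EC 1 against EC 2 went from 0.057 to -0.043, a larger move than that of the median. The cause of the sign changes was not tested.

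Thinning, which leaves fewer counts, lowered the genes called among all tested to 2411 (from 4509), 2387 (4427), 743 (1626), 1270 (2130), 692 (1218), 2208 (4299), 995 (1809) and 2280 (4199), in the order of VSMC against Fibro 1 and Fibro 2, Fibro 1 against Fibro 2, EC 1 against EC 2, EC 3 and immune, Neuron against immune, and EC 1 against VSMC. Fibro 1 against Fibro 2 gave 1078 with DESeq2 and 939 without the library term, that is, without the replicate block. The 10 genes called in Neuron fell from 2 to 1 without cells rich in other markers and without cells near another population. Median log2 folds of all genes moved by over 0.1 for Neuron against immune (0.135 to 0.195 with RLE, DESeq2, thinning or only the populations compared) and for EC 1 against immune (0.116 thinned). Low genes in the smallest populations limit what could be detected.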
